A study of Homo sapiens with 6 samples.

Results

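The 43 genes described here act in homologous recombination, in the Fanconi anemia pathway and in the checkpoint that responds to DNA breaks. They were chosen by name, with earlier results of these data known. The count table held a row for each of the 43 among its 34811 genes. Each was given a role: signalling kinases and their partner, MRN complex and end resection, BRCA1 and BRCA2 axis, strand exchange, Fanconi core with FANCM, the FANCD2-FANCI pair, helicases and nucleases, end protection, and PARP enzymes. RNA-seq compared OV3/COX1KD cells with OV3/SCR cells, to examine what loss of cyclooxygenase-1 (COX-1, gene PTGS1) changes in ovarian cancer cells. Both are stable clones of OVCAR-3, an established human ovarian carcinoma line that resembles high-grade serous tumors. OV3/COX1KD cells carried a pRS HuSH-29 plasmid with an shRNA against COX-1, and OV3/SCR cells carried the same vector with a scrambled shRNA. Both were selected with puromycin, grown in RPMI-1640 with fetal bovine serum and harvested in log phase without any DNA-damaging treatment being named. Each condition had 3 libraries from independent passages of 1 clone, clone #2 for OV3/COX1KD and clone #1 for OV3/SCR. The knockdown and the difference between clones therefore cannot be told apart, and the p-values below measure the spread between passages.

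Homologous recombination repairs a broken chromosome by copying the intact sister. The MRN complex (MRE11A, RAD50 and NBN) binds the broken end, nucleases trim it to a single-stranded tail, and BRCA1, BARD1, PALB2 and BRCA2 load a recombinase that invades the sister with the help of its paralogs, RAD52 and RAD54L. The Fanconi core complex attaches ubiquitin to FANCD2 and FANCI where the DNA strands are cross-linked, and nucleases then cut the cross-link out and hand the break to recombination. Defects of this pathway are frequent in high-grade serous ovarian cancer and are the basis of treatment with PARP inhibitors.

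The libraries held between 25291505 and 27391538 counts on genes, and 17309 genes, all 43 members among them, passed the filter on low counts. Levels are given in CPM (read counts divided by TMM-adjusted library size), and 3 counts, the least taken as detectable, corresponded to 0.112 to 0.120 CPM. PTGS1 had 713, 658 and 641 counts in OV3/SCR and 456, 486 and 501 in OV3/COX1KD, 73.3% of the control level (log2 fold change -0.45 with a standard error (SE) of 0.057, edgeR FDR 1.3e-06). Of 12 markers of OVCAR-3 cells 11 passed the filter, and the list's summed level was 4957.5 to 4992.3 CPM in OV3/SCR and 6626.5 to 6808.2 CPM in OV3/COX1KD, 9 of the 11 being higher and 2 lower at an FDR under 0.01. The lower ones were PAX8, the Müllerian lineage factor, and the keratin KRT7, and ESR1 was under the detectable level at 0.0384 CPM in OV3/SCR and 0.0257 CPM in OV3/COX1KD. Of 10 markers of blood, endothelial, stromal, muscle and liver cells 9 were in the table, and their summed level was 2.59 to 2.94 CPM in OV3/SCR and 2.67 to 3.02 CPM in OV3/COX1KD, with COL3A1 and LUM at 0 in OV3/SCR. The share of counts from mitochondrial genes was 6.82 to 7.73% in OV3/SCR and 5.53 to 6.68% in OV3/COX1KD, and the part of these shifts in the results below was not tested.

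Most of the 43 genes differed little between the clones, and FANCF and FANCA had the 2 differences over 0.5 on the log2 scale. FANCF was 2.37 times as high in OV3/COX1KD as in OV3/SCR, and FANCA fell to 69.5% of the control. At an FDR under 0.01, 14 members were lower in OV3/COX1KD and 8 were higher, and 21 had no call. Of all 17309 genes tested, 3820 were lower, 4473 were higher and 9016 had no call. The lower ones included 4 of the 7 strand exchange genes and 4 of the 7 Fanconi core genes, 57.1% each against 22.1% of all genes tested. The Fanconi share depends on which genes were given this role. Among Fanconi genes listed outside the 43, FANCB, C17orf70, C1orf86 and STRA13 had no call. There C19orf40 and APITD1 were higher and UBE2T was lower, and these genes are named after their values were seen. BRCA1, BRCA2, FANCD2 and ATM had no call. The roles were given with earlier results of these data known, so these groups are not an independent pattern. RNA of whole cultures was measured, so fewer cells that express a gene and less RNA in each cell cannot be told apart.

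The 14 lower members were 32.6% of the 43, against 22.1% of all genes tested, and the 8 higher members were 18.6%, against 25.8% of all genes tested. All members had a mean log2 CPM of at least 1. Among the 13008 genes tested that reached this level, 25.4% were lower and 32.3% higher. The lower share lay above and the higher share below that of all genes, and calls were so frequent across the table that these counts alone do not set the members apart. With total count scaling both splits moved toward lower, to 4 members higher (9.30%, against 3468 of the 17309 genes) and 19 lower (44.2%, against 28.7% of all genes). With a log2 fold change beyond 0.5 added to the FDR, 1 member was higher, 2.33% against 9.87% of all genes, and 1 was lower, 2.33% against 10.0%. None of the 43 passed the fold of 2.5 that the study required, while 274 of all genes tested were higher and 405 lower at this fold and FDR. Without OV3/SCR replicate 1 FANCF did pass it (2.73-fold, edgeR FDR 3.2e-07). The log2 fold change was within 0.25 of 0 in 28 members, and its 25th and 75th percentiles over all genes tested were -0.30 and 0.26. The median log2 fold change was -0.03 over the members and -0.01 over all genes tested. The 3 libraries of OV3/COX1KD lay above all 3 of OV3/SCR in 11 members (25.6%, against 32.5% of all genes) and below them in 17 (39.5%, against 30.7%). Among the other 15 members the conditions overlapped. The libraries of a condition that differed most from each other were OV3/COX1KD replicates 2 and 3, and without replicate 2 the members ATR (log2 fold change 0.13, edgeR FDR 9.5e-05), RBBP8 (0.12, edgeR FDR 0.00169) and WRN (0.14, edgeR FDR 0.00766) would be called higher and FANCL (-0.19, edgeR FDR 0.00637) lower.

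**Figure D1:**
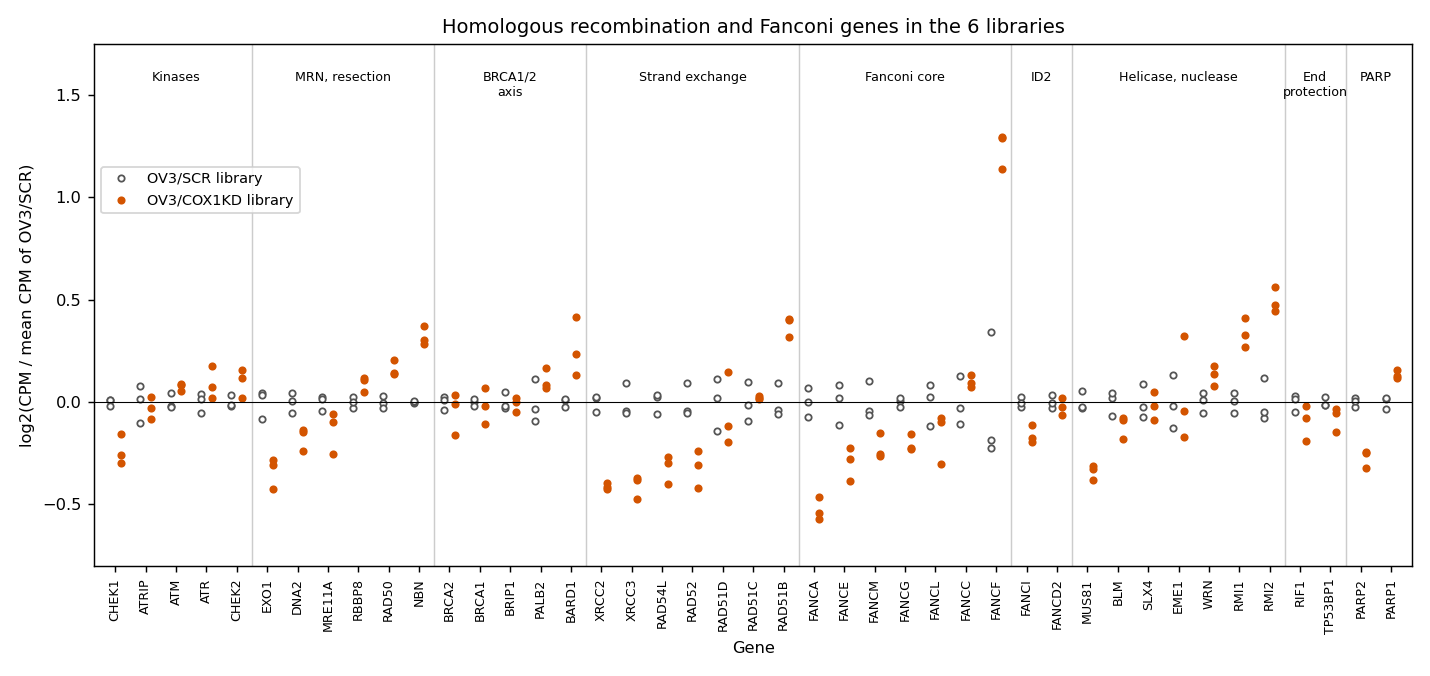
Level of each of the 43 genes in each library, as log2 of its CPM over the mean CPM of the 3 OV3/SCR libraries, ordered by role (open circles OV3/SCR, filled circles OV3/COX1KD). The 3 OV3/COX1KD libraries lie apart above those of OV3/SCR for FANCF and RMI2, and apart below for FANCA, XRCC2 and XRCC3, while for BRCA1, BRCA2 and FANCD2 they overlap.

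In the strand exchange group, XRCC2, XRCC3, RAD54L and RAD52 fell and RAD51B rose, with RAD51C and RAD51D between them. XRCC2 (ENSG00000196584, chromosome 7 of GRCh37, 152341861 to 152373278), a paralog of the recombinase that sits in a complex with RAD51B, RAD51C and RAD51D, had 1590, 1559 and 1470 counts in OV3/SCR and 1103, 1119 and 1174 in OV3/COX1KD. Every OV3/COX1KD library was below every OV3/SCR library, and the spread within each condition was narrow. Its level fell from 58.7 ± 1.66 CPM to 44.1 ± 0.426 CPM (SD, n = 3 each), which is -0.41 on the log2 scale (SE 0.041, edgeR FDR 4.0e-08). XRCC3 (ENSG00000126215, chromosome 14, 104163946 to 104181841), which pairs with RAD51C in another paralog complex, had 2677, 2384 and 2345 counts in OV3/SCR and 1822, 1826 and 1810 in OV3/COX1KD. The OV3/COX1KD libraries were again the lower 3, and OV3/SCR replicate 1 was the highest of the 6. XRCC3 fell from 94.1 ± 5.39 CPM to 71.0 ± 2.72 CPM (SD, n = 3 each), which is -0.41 on the log2 scale (SE 0.043, edgeR FDR 1.1e-07).

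RAD54L (ENSG00000085999, chromosome 1, 46712133 to 46744152), a motor protein that helps the recombinase pair the strands, had 872, 901 and 900 counts in OV3/SCR and 712, 695 and 688 in OV3/COX1KD. The conditions did not overlap, and the log2 fold change was -0.32 (34.0 ± 1.15 CPM to 27.2 ± 1.29 CPM, SD, n = 3 each, SE 0.052, edgeR FDR 2.7e-05). RAD52 (ENSG00000002016, chromosome 12, 1020902 to 1099219), which anneals complementary single strands, had 567, 609 and 547 counts in OV3/SCR and 413, 465 and 473 in OV3/COX1KD. Its log2 fold change was also -0.32 (21.9 ± 1.24 CPM to 17.6 ± 1.08 CPM, SD, n = 3 each, SE 0.064, edgeR FDR 2.7e-04), without overlap. RAD51B (ENSG00000182185, chromosome 14, 68286496 to 69196935) moved the other way at a far lower level, with 156, 139 and 136 counts in OV3/SCR and 182 in each OV3/COX1KD library. Its level rose from 5.48 ± 0.322 CPM to 7.10 ± 0.240 CPM (SD, n = 3 each), which is 0.37 on the log2 scale (SE 0.098, edgeR FDR 0.00284). With DESeq2 its adjusted p was 0.0226 and with total count scaling its edgeR FDR was 0.0146, so the RAD51B call was lost there. It was also lost without OV3/SCR replicate 2 (edgeR FDR 0.0136) or 3 (edgeR FDR 0.0159) and without OV3/COX1KD replicate 1 (edgeR FDR 0.0106). RAD51C differed by 0.02 on the log2 scale (SE 0.058, edgeR FDR 0.762) and RAD51D by -0.05 (SE 0.11, edgeR FDR 0.721). The summed level of the 7 strand exchange genes was 238 to 247 CPM in OV3/SCR and 191 to 200 CPM in OV3/COX1KD. XRCC3 (94.1 to 71.0 CPM) and XRCC2 (58.7 to 44.1 CPM) made up most of this fall. Part of the XRCC3 reads may be those of KLC1 if reads on their shared exon bases were counted, as described below.

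The Fanconi core genes held the largest rise and the largest fall among the 43. FANCF (ENSG00000183161, chromosome 11, 22644079 to 22647369), an adaptor that holds the core complex together, had 87, 59 and 57 counts in OV3/SCR and 159, 158 and 151 in OV3/COX1KD. The OV3/COX1KD libraries were close to each other, OV3/SCR replicate 1 was above the other OV3/SCR libraries, and the conditions did not overlap. FANCF rose from 2.57 ± 0.594 CPM to 6.09 ± 0.371 CPM (SD, n = 3 each), which is 1.24 on the log2 scale (SE 0.14, edgeR FDR 3.4e-07), and over all 13 alternative settings it stayed between 1.14 and 1.45. FANCA (ENSG00000187741, chromosome 16, 89793091 to 89883385), which binds FANCG in the core complex, had 1287, 1198 and 1130 counts in OV3/SCR and 795, 835 and 825 in OV3/COX1KD. It fell from 45.9 ± 2.28 CPM to 31.9 ± 1.22 CPM (SD, n = 3 each), which is -0.53 on the log2 scale (SE 0.049, edgeR FDR 2.0e-08), and no library of one condition reached the range of the other. The FANCA estimate was -0.49 without OV3/SCR replicate 1 and -0.48 with offsets for GC content and length, so there it passed the FDR but not the limit of 0.5.

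FANCE (ENSG00000112039, chromosome 6, 35420115 to 35434881), which links the core complex to FANCD2, had 331, 338 and 292 counts in OV3/SCR and 254, 262 and 249 in OV3/COX1KD. The 3 OV3/COX1KD libraries were the lower ones, and the log2 fold change was -0.30 (12.2 ± 0.852 CPM to 9.95 ± 0.565 CPM, SD, n = 3 each, SE 0.080, edgeR FDR 0.00361). DESeq2 gave FANCE an adjusted p of 0.0330, and its edgeR FDR was 0.0169 and 0.0263 without replicates 1 and 2 of OV3/SCR and 0.0228 without replicate 3 of OV3/COX1KD. FANCG, the partner of FANCA, fell by 0.20 on the log2 scale (edgeR FDR 4.4e-04), and the translocase FANCM, which brings the core complex to stalled forks, fell by 0.22 (edgeR FDR 0.00293, DESeq2 adjusted p 0.0246). Without OV3/SCR replicate 3 or OV3/COX1KD replicate 1 the FANCM call was lost (edgeR FDR 0.0347 and 0.0146). The ubiquitin ligase FANCL had a log2 fold change of -0.16 (edgeR FDR 0.0446) and FANCC one of 0.10 (edgeR FDR 0.176), and neither passed. Of the pair that the core complex modifies, FANCI fell by 0.16 on the log2 scale (edgeR FDR 8.0e-04), from 87.4 ± 1.5 CPM to 78.2 ± 2.3 CPM (SD, n = 3 each). FANCD2 was at 77.6 ± 1.68 CPM in OV3/SCR and 76.5 ± 2.22 CPM in OV3/COX1KD (SD, n = 3 each, edgeR FDR 0.653).

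**Figure D2:**
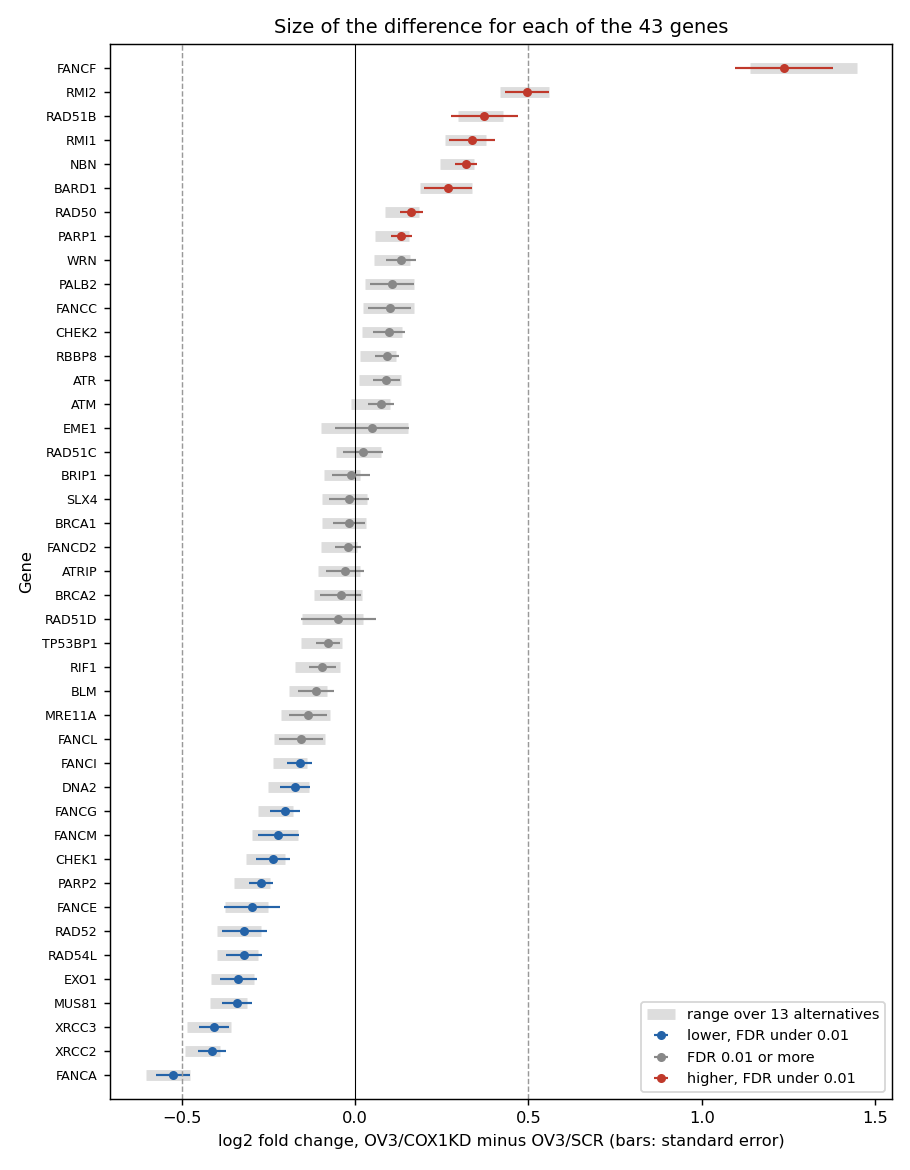
Log2 fold change of each of the 43 genes, OV3/COX1KD minus OV3/SCR, with its SE (points and bars), over a grey band for the range of the estimate in 13 alternative settings. Red points are higher and blue points lower at an FDR under 0.01, grey points had no call, and dashed lines mark 0.5 and -0.5. FANCF lies on the right at 1.24 and FANCA, at -0.53, is left of -0.5.

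Among the genes that receive the broken end, NBN and RAD50 rose while the nucleases EXO1 and DNA2 fell. NBN (ENSG00000104320, chromosome 8), the MRN subunit that recruits ATM, had 4113, 4041 and 4011 counts in OV3/SCR and 4743, 4788 and 5347 in OV3/COX1KD. The OV3/COX1KD libraries were the higher 3, with replicate 3 the highest. NBN rose from 155 ± 0.476 CPM to 193 ± 6.44 CPM (SD, n = 3 each), which is 0.32 on the log2 scale (SE 0.032, edgeR FDR 4.6e-08). EXO1 (ENSG00000174371, chromosome 1, 242011269 to 242058450), an exonuclease of long-range resection, had 954, 927 and 847 counts in OV3/SCR and 650, 703 and 761 in OV3/COX1KD. Without overlap, its level fell from 34.7 ± 1.68 CPM to 27.4 ± 1.45 CPM (SD, n = 3 each), which is -0.34 on the log2 scale (SE 0.054, edgeR FDR 2.5e-05).

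RAD50, the zinc-hook ATPase of MRN, rose by a log2 fold change of 0.16 (edgeR FDR 4.0e-04), but with total count scaling it was 0.09 and lost the call (edgeR FDR 0.0389). DNA2, the helicase and nuclease that works beside EXO1, fell by 0.17 on the log2 scale (edgeR FDR 0.00237), and by DESeq2 its adjusted p was 0.0237. The DNA2 call was lost without OV3/SCR replicate 1 (edgeR FDR 0.0121) or replicate 2 (edgeR FDR 0.0217). The third MRN subunit, MRE11A, had a log2 fold change of -0.13 (edgeR FDR 0.0425), and RBBP8, which switches MRN nuclease activity on, had one of 0.09 (edgeR FDR 0.0297). Neither passed the threshold, although in each the 3 libraries of OV3/COX1KD lay on 1 side of those of OV3/SCR.

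In the BRCA1 and BRCA2 axis 4 of 5 genes had no call, as had 9016 of the 17309 genes tested. BRCA1, whose complex with BARD1 promotes resection and recruits PALB2, was at 45.6 ± 0.568 CPM in OV3/SCR and 45.1 ± 2.73 CPM in OV3/COX1KD (SD, n = 3 each), a log2 fold change of -0.02 with an SE of 0.047 (edgeR FDR 0.776). BRCA2, the loader of the recombinase, was at 24.9 ± 0.576 CPM and 24.2 ± 1.70 CPM (SD, n = 3 each), a log2 fold change of -0.04 with an SE of 0.058 (edgeR FDR 0.562). For both genes the libraries of the conditions overlapped, and the spread among OV3/COX1KD libraries was wider than among OV3/SCR libraries. The bridging protein PALB2 (log2 fold change 0.11, edgeR FDR 0.152) and the helicase BRIP1 (-0.01, edgeR FDR 0.879) also overlapped. BARD1 rose, with 459, 450 and 435 counts in OV3/SCR and 507, 470 and 607 in OV3/COX1KD. The highest of these libraries, OV3/COX1KD replicate 3, weighed on its log2 fold change, which was 0.27 over all libraries (edgeR FDR 0.00256) and 0.19 without that library (edgeR FDR 0.0278). The BARD1 call was lost as well with total count scaling (edgeR FDR 0.0224) and without OV3/SCR replicate 2 (edgeR FDR 0.0107) or 3 (edgeR FDR 0.0139).

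Of the helicases and nucleases that resolve recombination intermediates, the 2 RMI genes rose and MUS81 fell. RMI2 (ENSG00000175643, chromosome 16, 11343476 to 11475519), a subunit of the complex in which the BLM helicase takes crossed strands apart, had 428, 479 and 424 counts in OV3/SCR and 629, 579 and 628 in OV3/COX1KD. RMI2 rose from 16.9 ± 1.25 CPM to 23.9 ± 0.982 CPM (SD, n = 3 each), which is 0.495 on the log2 scale (SE 0.063, edgeR FDR 1.5e-06). This lay just under the limit of 0.5, which RMI2 passed by DESeq2 at 0.508. RMI1 (ENSG00000178966, chromosome 9, 86595713 to 86618989), its partner in the same complex, had 356, 334 and 354 counts in OV3/SCR and 420, 401 and 470 in OV3/COX1KD. Its log2 fold change was 0.34 (13.3 ± 0.441 CPM to 16.8 ± 0.822 CPM, SD, n = 3 each, SE 0.067, edgeR FDR 2.3e-04). In both RMI genes all OV3/COX1KD libraries were above all OV3/SCR libraries, and BLM itself had no call at a log2 fold change of -0.11 (edgeR FDR 0.0705).

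MUS81 (ENSG00000172732, chromosome 11, 65624597 to 65635124), the catalytic subunit of a nuclease that cuts branched DNA, had 1513, 1396 and 1391 counts in OV3/SCR and 1056, 1093 and 1175 in OV3/COX1KD. MUS81 fell from 54.6 ± 1.77 CPM to 43.2 ± 1.12 CPM (SD, n = 3 each), which is -0.34 on the log2 scale (SE 0.043, edgeR FDR 1.1e-06), with the conditions apart. Its non-catalytic partner EME1 had a log2 fold change of 0.05 with an SE of 0.11 (edgeR FDR 0.708), and the nuclease scaffold SLX4 one of -0.02 (edgeR FDR 0.822). The helicase WRN had one of 0.13 and did not pass (edgeR FDR 0.0144).

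Of the 5 checkpoint genes only CHEK1 was called, and 4 had no call, against 9016 of the 17309 genes tested. CHEK1, the kinase that ATR activates at stalled forks, fell by 0.24 on the log2 scale, from 37.5 ± 0.477 CPM to 31.8 ± 1.63 CPM (SD, n = 3 each, edgeR FDR 3.4e-04), and each OV3/COX1KD library was below each OV3/SCR library. The apical kinases ATM (log2 fold change 0.08, edgeR FDR 0.0908) and ATR (0.09, edgeR FDR 0.0499) and the ATM target CHEK2 (0.10, edgeR FDR 0.0738) had no call. ATRIP, the partner of ATR, had a log2 fold change of -0.03 (edgeR FDR 0.665). Both end protection genes, which hold resection back, were without a call, RIF1 at -0.09 (edgeR FDR 0.0435) and TP53BP1 at -0.08 (edgeR FDR 0.0658).

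The 2 PARP enzymes, which mark DNA breaks with poly(ADP-ribose), moved in opposite directions. PARP2 (ENSG00000129484, chromosome 14, 20811774 to 20826063) had 2796, 2658 and 2686 counts in OV3/SCR and 2205, 2183 and 2211 in OV3/COX1KD. It fell from 103 ± 1.47 CPM to 85.8 ± 2.54 CPM (SD, n = 3 each), which is -0.27 on the log2 scale (SE 0.035, edgeR FDR 1.6e-06), without overlap. PARP1, the main enzyme of the family and the member with the most counts in any library, 6103, rose by a log2 fold change of 0.13 (205 ± 4.19 CPM to 225 ± 3.25 CPM, SD, n = 3 each, edgeR FDR 7.5e-04). With total count scaling the PARP1 change was 0.06 and lost its call (edgeR FDR 0.112).

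Per length of exon the 43 genes spanned a range from 0.601 CPM per kilobase for RAD51D to 25.5 CPM per kilobase for PARP2 in OV3/SCR. RBBP8 came next to PARP2 with 18.5, followed by XRCC3 with 12.5 and PARP1 with 11.2 CPM per kilobase. BRCA1 stood at 3.22, BRCA2 at 1.73 and ATM at 1.64 CPM per kilobase, and FANCF, FANCL and RAD51B were with RAD51D at the low end, all under 1 CPM per kilobase. FANCF was the gene that left this low end in OV3/COX1KD, where it reached 1.85 CPM per kilobase, above ATM at 1.73. The median member had 4.86 CPM per kilobase, against 3.22 over all genes tested. The length is that of all annotated exons of a gene together, 39184 bases for ATM and 37977 for FANCL, so a gene with long minor transcripts is placed lower than its main transcript would be.

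**Figure D3:**
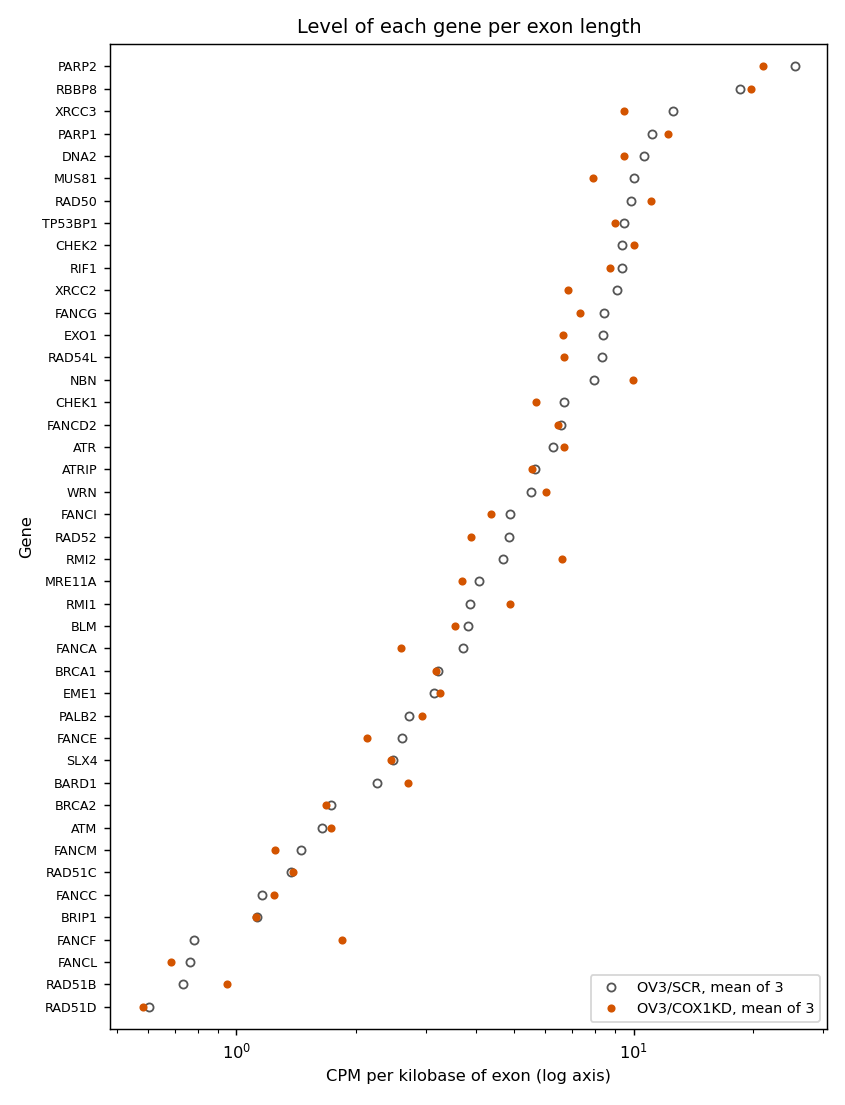
Mean level of each gene per kilobase of exon in OV3/SCR (open circles) and OV3/COX1KD (filled circles), n = 3 libraries each, on a log axis and ordered by the OV3/SCR level. Levels run from 0.601 for RAD51D to 25.5 for PARP2 in OV3/SCR, and the widest gap between the circles is that of FANCF.

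Of the 43 genes, 37 had a promoter in the RefSeq table of GRCh38.p14, which gives 250 bases before and 50 after the start of the gene. The windows were searched on both strands for 4 motifs, those common in promoters of S phase and mitotic genes and that of genes responding to cyclic AMP, the second messenger that several prostaglandin receptors raise. A CRE (TGACGTCA, its own reverse complement) stood in the windows of EXO1, XRCC2, PARP2 and RAD51C, 4 of 37 members (10.8%) against 1.98% of all 27305 promoters. The first 3 fell in OV3/COX1KD and RAD51C had no call. The CRE was thus in 3 of the 12 matched members that fell, 0 of the 6 that rose and 1 of the 19 without a call. With so few windows these counts cannot be compared. The set of all promoters was not limited to expressed genes or matched to the members in GC content. Here and below, the shares of members and of all promoters are thus those of unlike sets. The stretches are shown because EXO1, XRCC2 and PARP2 were among the members that fell. Each is 30 bases in the direction of transcription with the CRE in capitals.
EXO1 (chr1:241848139-241848168, plus strand): gggatacgcgtTGACGTCAcatcctctggg
XRCC2 (chr7:152676258-152676287, minus strand): acgcggaagtcTGACGTCAcaggaactggg
PARP2 (chr14:20343610-20343639, plus strand): gagcgggttgaTGACGTCAgcgttcgaatt
RAD51C (chr17:58692561-58692590, plus strand): cgctttacgtcTGACGTCAcgccgcacgcc
The CRE ends 47 bases before the start in EXO1, 128 in XRCC2 and 7 in PARP2, and in RAD51C it lies across the start.

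An E2F motif (TTTCCCGC, TTTCGCGC, TTTGCCGC or TTTGGCGC) stood in 5 of the 37 windows (13.5%) against 3.33% of all promoters. These were EXO1, XRCC2 and FANCA, 3 of the 12 matched members that fell, and FANCC and FANCD2, 2 of the 19 without a call. It was in 0 of the 6 that rose, and these counts too are small. FANCC held 2 E2F motifs, and EXO1 and XRCC2 held both a CRE and an E2F motif. The E2F stretches of the 3 genes that fell are shown with the motif in capitals, which in XRCC2 and FANCA reads on the opposite strand. Those of FANCC and FANCD2 are left out.
EXO1 (chr1:241848197-241848226, plus strand): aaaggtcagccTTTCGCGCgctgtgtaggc
XRCC2 (chr7:152676102-152676131, minus strand): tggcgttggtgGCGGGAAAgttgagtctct
FANCA (chr16:89816801-89816830, minus strand): actacaccgcgGCGGCAAAgccaaacgcaa
A CCAAT box (CCAAT) was in 16 of 37 windows (43.2%) against 35.7% of all promoters, and a CHR (TTTGAA or TTCGAA) in 5 (13.5%) against 16.6%. FANCF, the member that rose most, had 2 CCAAT boxes and none of the other motifs, and these are given because FANCF stands apart from the rest.
FANCF, farther box (chr11:22625898-22625927, minus strand): catgcatttcgaCCAATagcattgcagaga
FANCF, nearer box (chr11:22625858-22625887, minus strand): ttcgcggatgttCCAATcagtacgcagaga
The boxes end 88 and 48 bases before the start. These matches describe the letters of the windows and were not tested for binding or for a link with the changes.

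Some members share exon bases with a neighbour. The paper names HTSeq but not how reads on shared bases were treated. Such reads may have been counted for a gene or set aside, so that neither gene received them. The library kit named in the labels does not record the strand. The annotation and strand setting of the counting are not given in the sources used here. In the GENCODE annotation read here, which may differ from that of the counting, 11 members share over 5% of their exon bases with another gene. XRCC3 shares 76.7% with KLC1 on the opposite strand, a kinesin light chain gene that also fell (log2 fold change -0.61, edgeR FDR 6.7e-11). FANCA shares 19.6% with ZNF276 on the opposite strand, which fell as well (-0.62, edgeR FDR 4.3e-08). MUS81 shares 13.9% with CFL1, which fell too (-0.13, edgeR FDR 5.3e-04) and stood at 796 CPM in OV3/SCR, against 54.6 CPM for MUS81. RAD54L shares 19.9% with LRRC41, which had no call (-0.003, edgeR FDR 0.968). The part of KLC1, ZNF276 and CFL1 reads in the falls of XRCC3, FANCA and MUS81 was not tested. The fold changes of these members are uncertain to that extent. In XRCC2, EXO1 and PARP2 no other gene shared over 5% of the exon bases.

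For other members the gene that shares exon bases moved differently or had few reads. ATRIP, without a call, shares 26.7% of its exon bases with TREX1 on the same strand, a nuclease gene that rose (0.44, edgeR FDR 7.9e-05). EME1, also without a call, shares 16.4% with LRRC59, which fell (-0.23, edgeR FDR 2.9e-05), and TP53BP1 shares 28.8% with TUBGCP4, which had no call (0.03, edgeR FDR 0.50). FANCF shares 9.57% with GAS2 on the opposite strand, and GAS2 had 0, 2 and 2 counts in OV3/SCR and 2, 0 and 1 in OV3/COX1KD. The part of reads on the shared bases in the rise of FANCF was not tested.

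**Figure D4:**
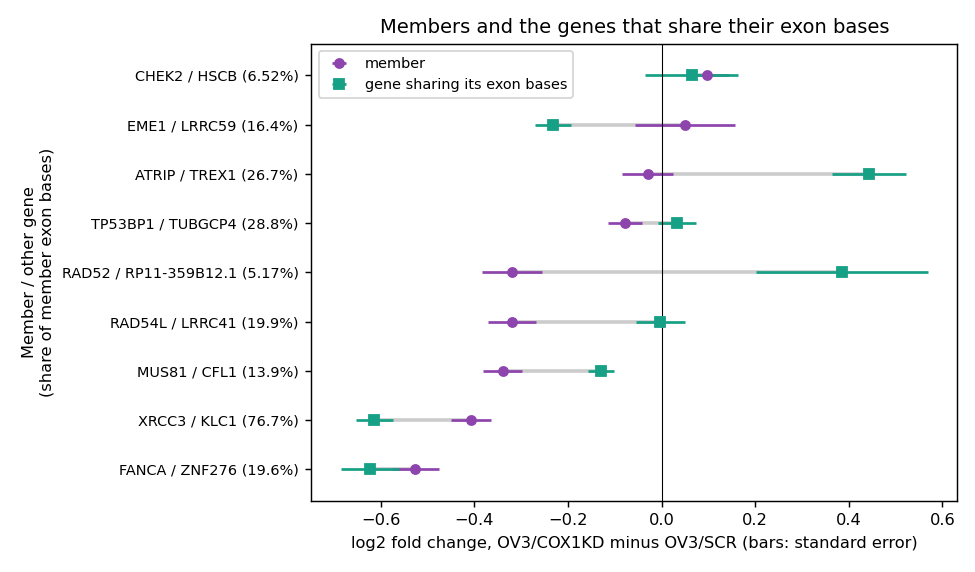
Log2 fold change, OV3/COX1KD minus OV3/SCR, of 9 members (circles) and of the gene that shares the named percentage of their exon bases (squares), with SEs. XRCC3 and FANCA fell together with KLC1 and ZNF276, RAD54L lies left of LRRC41, and ATRIP lies left of TREX1.

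The genes around a member did not move with it in a fixed way. Within 1 Mb of XRCC3 there were 26 other tested genes with a median log2 fold change of -0.42, of which 19 were lower at an FDR under 0.01, close to the -0.41 of XRCC3 itself. Around NBN the median of 7 neighbours was 0.31 and around RMI1 that of 10 was 0.33, again near the members' own values. EXO1 and RAD50 lay against their surroundings, with medians of 0.47 over 6 neighbours and -0.39 over 20. XRCC2, with a median of 0.16 over 8 neighbours of which none was lower at an FDR under 0.01, did so too. FANCF had 3 tested neighbours, of which ANO5, of the anoctamin membrane protein family, had 95, 85 and 85 counts in OV3/SCR and 6, 9 and 8 in OV3/COX1KD (log2 fold change -3.47, edgeR FDR 1.2e-10) and SVIP rose by a log2 fold change of 0.24 (edgeR FDR 6.7e-04). The third, CTD-2140G10.2, had 20, 17 and 10 counts in OV3/SCR and 0, 0 and 2 in OV3/COX1KD (-4.29, edgeR FDR 2.1e-05). Of these 3 neighbours 1 was thus higher and 2 lower, while of all 17309 genes tested 4473 were higher and 3820 lower. Whether the stretch of chromosome 11 that holds FANCF differed between the clones was not tested.

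The make-up of the called genes is given as a description, with no test. The 14 lower members had a median exon length of 5500 bases and a GC content of 46.6%, the 8 higher members 7524 bases and 42.4%, and all genes tested 4720 bases and 48.0%. With offsets that remove trends in GC content and length, 8 members were higher and 16 lower, and FANCA was no longer beyond -0.5. In that setting 4153 of all 16800 genes tested were higher and 4131 lower.

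Beyond the 43 genes, 5 further lists of repair and proliferation genes were read in the same fit. The shares below stand against 25.8% of all genes higher and 22.1% lower, and no difference from these was tested. Of 31 other Fanconi and recombination genes tested, 11 were higher (35.5%) and 9 lower (29.0%), with a median log2 fold change of 0.01. Of 17 break signalling and ATR partner genes, 2 were higher (11.8%) and 8 lower (47.1%), with a median of -0.11. Of 14 genes of non-homologous end joining, the repair route that rejoins ends directly, 4 were higher (28.6%) and 5 lower (35.7%), with a median of -0.10. Of 34 mismatch and excision repair genes 10 were higher (29.4%) and 5 lower (14.7%), with a median of 0.01. Of 32 proliferation genes 9 were higher and 9 lower (28.1% each), with a median of -0.03, and their summed level was 5493.5 to 5530.1 CPM in OV3/SCR and 5500.1 to 5727.8 CPM in OV3/COX1KD. Each list held called genes in both directions. NHEJ1 (-1.30, edgeR FDR 0.00705) and APLF (1.16, edgeR FDR 0.00262), the outermost genes of the end joining list, are named after their values were seen, and had at most 18 and 36 counts in any library.

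The largest differences in these lists at a mean log2 CPM of at least 1 included partners of the members. FAM175A, which joins BRCA1 to a ubiquitin-binding partner at breaks, had 149, 184 and 168 counts in OV3/SCR and 267, 267 and 310 in OV3/COX1KD (log2 fold change 0.78, edgeR FDR 6.9e-07). Of the other subunits of this BRCA1-A complex, BRE (0.48, edgeR FDR 3.0e-06) and the deubiquitinase BRCC3 (0.43, edgeR FDR 2.0e-07) rose, while UIMC1, the ubiquitin-binding partner (-0.40, edgeR FDR 4.6e-06), and BABAM1 (-0.42, edgeR FDR 1.8e-07) fell, so its genes went both ways. BRCC3, UIMC1 and BABAM1 are named after their values were seen. EME2, the other partner of MUS81, had 2788, 2588 and 2548 counts in OV3/SCR and 1439, 1615 and 1469 in OV3/COX1KD (-0.78, edgeR FDR 3.6e-11), so that MUS81 and EME2 fell while EME1 had no call.

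GEN1, a resolvase that cuts crossed strands, fell from 70.8 ± 1.37 CPM to 49.5 ± 1.92 CPM (SD, n = 3 each), a log2 fold change of -0.52 (edgeR FDR 1.4e-09). PSMC3IP, a cofactor of strand exchange, fell by 0.56 on the log2 scale (edgeR FDR 3.1e-04), and RPA3, the small subunit of the protein that coats single strands, rose by a log2 fold change of 0.46 (edgeR FDR 8.0e-08). Outside recombination, the ligase LIG4 of end joining (-0.51, edgeR FDR 2.1e-05) and the helicase ERCC3 of excision repair (-0.44, edgeR FDR 1.5e-08) fell, and TDP1, which clears protein from DNA ends, rose (0.47, edgeR FDR 2.6e-08). Of the proliferation genes, the transcription factors MYBL2 (-0.52, edgeR FDR 4.5e-11) and E2F2 (-0.52, edgeR FDR 3.7e-07) and the chromatin protein UHRF1 (-0.48, edgeR FDR 4.3e-09) fell. In that list 9 genes were higher and 9 lower. Its largest rise was that of TOP2A (0.37, edgeR FDR 3.8e-09), named after its value was seen. The part of MYBL2, E2F2 and UHRF1 in the falls of the members was not tested.

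**Figure D5:**
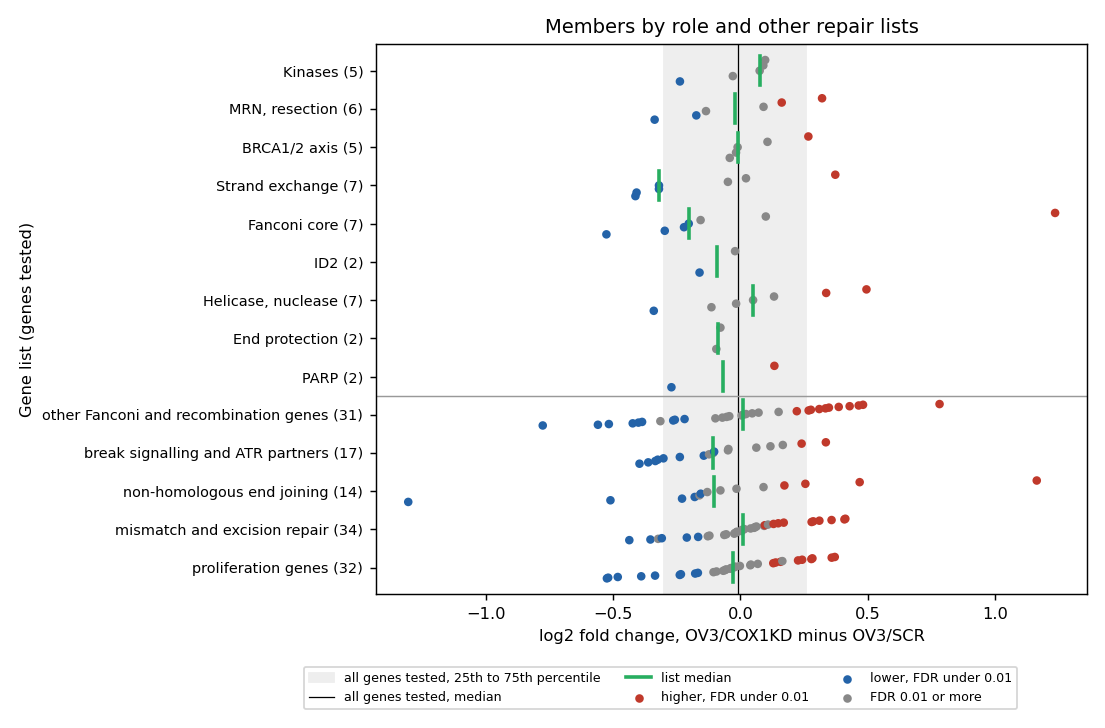
Log2 fold change, OV3/COX1KD minus OV3/SCR, of each tested gene by list, with the 43 members by role above the line and 5 other lists below it (numbers in parentheses are genes tested). Green ticks mark list medians and the grey band the middle part of all genes tested, from -0.30 to 0.26. Strand exchange has the lowest median, -0.32, and every list below the line has genes on both sides of 0.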

How the data were processed

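Gene expression was measured by RNA-seq in 3 OV3/SCR and 3 OV3/COX1KD libraries (TruSeq RNA kit, HiSeq2500). The authors aligned the reads to hg19 (GRCh37) with TopHat2 (2.0 in the submitters' processing notes), used HTSeq to count them per gene, and deposited these raw counts with no normalization. The annotation and strand setting of the counting are not given in the sources used here. Groups and replicate numbers came from the labels.

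Tests were run with edgeR 4.0.16 under R 4.3.3, using TMM factors (0.97 to 1.04), filterByExpr, glmQLFit and glmQLFTest for the 2 conditions with no covariate, with p-values adjusted by Benjamini-Hochberg over 17309 genes (FDR threshold 0.01). The standard error was the log2 fold change over the square root of F. The study used DESeq2, which is an alternative here (1.42.0). The biological coefficient of variation was 3.21%. Pairs of libraries within a condition gave a chi-square per degree of freedom of 1.82 to 6.40, and none was a copy of another. Floors cover counting error only, since amplified reads are not independent molecules.

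Exon lengths, GC content and shared exon bases came from GENCODE 44 lifted to GRCh37, in which 33556 of 34811 genes had an entry. The members, their roles and the gene lists were chosen with earlier results of these data known. Counts in every library are given for members past the FDR of 0.01 and 0.5 on the log2 scale and for the 12 next largest whose mean log2 CPM reached 1. From the 5 lists the 12 largest at an FDR under 0.01 whose mean log2 CPM reached 1 are named, and others only where the text says so. The counts of BARD1, GAS2, ANO5 and CTD-2140G10.2 and the values of genes that share exon bases with members were added after their values were seen. The alternatives were RLE factors, total count scaling, no filter, at least 10 counts in every library, DESeq2, a replicate block, GC and length offsets, and leaving out each library. On data simulated for 17309 genes, the fit called 78 of 78 genes changed by 1.5 and 63 of 69 changed by 0.5 (log2) where the mean log2 CPM reached 1, and 0 of 17109 unchanged genes. Only 200 genes were changed, and every gene was given 1 common dispersion (0.001028). The data had 4473 higher and 3820 lower genes and a spread that varied by gene. The simulation thus checks that the fit runs and gives no rate of false calls for these data.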

Additional observations from a re-analysis of the deposited data

How the results depend on the processing

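Of the 22 called members, 15 kept the same call under all 13 alternatives. The RLE factors, the filter at 10 counts and the replicate block changed no member call. The labels number the replicates alike in both conditions, and the growth protocol speaks of 3 replicate pairs. Deviations from the condition means correlated at 0.0013, 0.048 and 0.022 in same-numbered libraries, across genes that are not independent. In libraries of different numbers the correlations were -0.042 to 0.021. The main test used no pairing, and with the replicate block 8 members were higher and 14 lower. Total count scaling left 4 members higher (8 otherwise, BARD1, PARP1, RAD50 and RAD51B losing the call) and 19 lower, and among all called genes the share that was higher went from 53.9% to 41.1%. The members higher with a log2 fold change over 0.5 were 2 with no filter, 2 with DESeq2 and 1 to 2 with a library left out, and those lower beyond -0.5 were 0 with GC and length offsets and 0 to 1 with a library left out, being 0 without OV3/SCR replicate 1. The count over 0.5 was 2 without OV3/SCR replicate 2, OV3/COX1KD replicate 2 or OV3/COX1KD replicate 3. With a library left out, 6 to 11 members were higher and 12 to 15 lower. Among all called genes the share that was higher was then 54.0 to 55.6%.

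The calls of RAD51B, FANCE, BARD1, DNA2 and FANCM also depended on single libraries, and RAD51B, FANCE, DNA2 and FANCM lost theirs with DESeq2. ATR, BLM, FANCL, MRE11A, RBBP8, RIF1, TP53BP1 and WRN, without a call, passed the threshold in 1 or 2 alternatives each. Directions turned only among members without a call. With total count scaling ATM was at -0.0017, RAD51C at -0.055 and EME1 at -0.027. With no filter BRCA1 was at 0.0057, BRIP1 at 0.012, FANCD2 at 0.0019 and SLX4 at 0.0060. DESeq2 gave BRIP1 0.0014, and the GC and length offsets gave ATM -0.011 and SLX4 0.034. With a library left out, the log2 fold change ranged from -0.073 to 0.014 for ATRIP, -0.060 to 0.033 for BRCA1, -0.081 to 0.021 for BRCA2, -0.023 to 0.015 for BRIP1, -0.098 to 0.15 for EME1, -0.040 to 0.0064 for FANCD2, -0.019 to 0.075 for RAD51C, -0.15 to 0.023 for RAD51D and -0.049 to 0.033 for SLX4. The cause was not tested. At this depth every member had at least 57 counts in every library.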
